A study of Mus musculus with 14 samples.

Results

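The genes described here mark the primitive erythroid and early blood program of the mouse embryo. They are 4 globin genes, Hbb-y, Hbb-bh1, Hba-x and Hba-a1, and 5 blood transcription factor genes, Gata1, Tal1, Runx1, Klf1 and Lyl1. These 9 genes were chosen by name, and all 9 are among the 16181 genes of the deposited table of normalized values. RNA was sequenced from mouse embryonic stem cells (mESCs) with an Osr1-GFP reporter that stably express a short hairpin RNA (shRNA). One line carries shLacZ, a control hairpin against a gene that mice lack, and the other carries shDIS3L2, against the exoribonuclease gene Dis3l2. Stem cells kept with LIF and 2i inhibitors gave d0, and embryoid bodies (EBs) formed in hanging drops and then held in suspension with serum but without LIF and 2i gave d2, d4, d6, d8, d10 and d12. Each line was sampled once per day, which makes 14 libraries with no replicate of any line and day. Each shRNA line is a single cell line, and whether it is 1 clone is not given in the sources used here. EBs hold many cell types, and none was sorted.

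Total reads on genes ranged from 7178712 in shLacZ d4 to 39888099 in shLacZ d0, and the larger library of a day had up to 2.88 times the reads of the smaller. Levels are given as CPM, the reads on a gene scaled to a total of 1000000 reads on all genes of its library. At d0 the Dis3l2 level was 28.7 CPM with shLacZ and 3.93 CPM with shDIS3L2, at d2 15.8 and 4.44 CPM, at d4 22.0 and 7.05 CPM, and at d6 23.8 and 13.1 CPM. At d8 it was at 20.2 CPM (95% interval 18.1 to 22.4) in shLacZ and 19.6 (17.7 to 21.6) in shDIS3L2, and at d10 at 19.2 (16.4 to 22.5) and 18.3 (16.5 to 20.2). At d12 the levels were 19.7 (17.1 to 22.7) and 14.9 (12.7 to 17.4) CPM. A lower Dis3l2 level was therefore not detectable at d8 and d10, and the lines are named by their sample labels throughout. In the deposited values the shDIS3L2 libraries carry another hairpin name, which was matched to that line through the column names of the paper's supplement. Intervals on levels of single libraries are exact Poisson intervals, and those on shares and folds are exact Clopper-Pearson intervals. All are at 95% and cover counting error only. A gene with 0 reads could be present at up to 3 reads, or 0.0752 CPM at the greatest depth and 0.418 CPM at the lowest.

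Red blood cells of the early embryo arise in the yolk sac from mesodermal precursors that also give endothelium. Among the globins these primitive cells use, Hbb-bh1 and Hba-x come first, and the cells move toward Hbb-y and the alpha genes Hba-a1 and Hba-a2 as they mature, while the adult beta genes Hbb-bs and Hbb-bt belong mainly to definitive red cells. Tal1, Lyl1 and Runx1 act in the precursors, and Gata1 and Klf1 drive red cell genes through GATA sites and CACCC boxes.

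Because the globins had similar courses over the days, GATA sites (with the letters AGATAA or with AGATAG, and with TGATAA or with TGATAG) and CACCC boxes (with CCACCC or with CCACACCC) within 250 bases upstream of the RefSeq start sites were searched on both strands. A promoter sequence was matched for 8 of the 9 genes. Tal1 and Runx1 had 2 start sites each, and a match at either was counted, whereas the shares of all promoters count single start sites. The GATA site of Tal1 was at its first start site only. A GATA site was found in Hbb-y, Hba-x, Hba-a1, Tal1 and Klf1, and 26.5% of 32851 mouse promoters of this length held one. A CACCC box was found in Hbb-y, Hba-x, Hba-a1, Gata1 and Lyl1, against 30.1% of all promoters. All 3 globin promoters matched held both motifs, which 6.29% of all promoters did. The segments of 30 bases that hold these matches are given 5′ to 3′ on the strand of the gene, from RefSeq sequence of GRCm38.p6, with the motif in capitals.
Hbb-y GATA site, chr7:103853352-103853381, minus strand: atctaatgtgcaTTATCAtaaacacagtgt
Hbb-y CACCC box, chr7:103853302-103853331, minus strand: catgacctggctCCACCCatgaggaccacg
Hba-x upper GATA site, chr11:32276354-32276383, plus strand: atggctgggcccCTATCTctcctggattct
Hba-x lower GATA site and CACCC box, chr11:32276486-32276515, plus strand: tggctcTGATAAcaggctCCACCCtgcaag
Hba-a1 GATA site, chr11:32283477-32283506, plus strand: tgtccgggcaacTGATAAggattccctgca
Hba-a1 CACCC box, chr11:32283599-32283628, plus strand: ccaagggcgtgtCCACCCtgcctggaggac
Klf1 GATA site, chr8:84901890-84901919, plus strand: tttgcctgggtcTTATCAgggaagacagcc
Tal1 GATA site, chr4:115056209-115056238, plus strand: ctatagagtcttTTATCTttgagcaattcc
Gata1 CACCC box, chrX:7967946-7967975, minus strand: ccctgcactgccCCACCCactggggcacca
Lyl1 CACCC boxes, one on each strand, chr8:84701405-84701434, plus strand: ttCCACCCccatcagcataggGGGTGGggt
In Hba-x a GATA site at -108 and a CACCC box at -96, counted from the start site, lie in a single segment, whereas in Hbb-y they begin at -162 and -112 and in Hba-a1 at -183 and -61. The longer context of Hbb-y, the member with the highest level in a single library, is the stretch of 241 bases upstream of the annotated gene, chr7:103853217-103853457 on the minus strand.
Hbb-y upstream: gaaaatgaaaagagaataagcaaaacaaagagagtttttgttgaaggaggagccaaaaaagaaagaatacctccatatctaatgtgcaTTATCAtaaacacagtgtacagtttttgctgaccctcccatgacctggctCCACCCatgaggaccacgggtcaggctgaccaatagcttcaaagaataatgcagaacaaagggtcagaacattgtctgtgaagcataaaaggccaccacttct
A match is a run of letters and not a measured binding site, and no binding was measured in these libraries. The gene spans given below can begin before a RefSeq start site. The lower Hba-x, Hba-a1 CACCC and Gata1 segments lie inside those spans.

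All 4 globins were near 0 in stem cells and early EBs, stood highest at d8 in both lines, and were far lower again at d10 and d12. Hbb-y (ENSMUSG00000052187, chr7:103851749-103853216 of GRCm38, minus strand), the embryonic epsilon-y beta-like globin, had 0 reads in shLacZ at d0 and d2 and then 2.93, 2.63, 239, 25.7 and 1.59 CPM at d4, d6, d8, d10 and d12. In shDIS3L2 it had 0 reads at d0, d2 and d4 and then 7.63, 589, 51.9 and 13.4 CPM. The d8 library therefore stood above every other library of its line, and the shDIS3L2 library was the higher of the pair from d6 on. At d4 the order was the other way, with 21 reads in shLacZ and 0 reads in shDIS3L2. In EBs, fewer red cells and less globin RNA per cell cannot be told apart. From d6 to d8 the level of Hbb-y was 90.3-fold higher in shLacZ (95% interval 65.2 to 130.5) and 77.0-fold higher in shDIS3L2 (62.0 to 97.2).

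Hbb-bh1 (ENSMUSG00000052217, chr7:103841637-103843164, minus strand), the beta-like globin of the earliest primitive red cells, was at 0, 0.152, 1.25, 37.7, 325, 14.5 and 2.28 CPM in shLacZ from d0 to d12. In shDIS3L2 it was at 0, 0.140, 0.145, 126, 453, 24.6 and 11.1 CPM on the same days. It was already well above its early levels at d6, a day on which Hbb-y was at under 10 CPM in both lines. From d6 to d8 its level was 8.64-fold higher in shLacZ (7.88 to 9.49) and 3.61-fold higher in shDIS3L2 (3.41 to 3.83).

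Hba-x (ENSMUSG00000055609, chr11:32276400-32278116, plus strand), the embryonic zeta alpha-like globin, was at 0, 0.0379, 0.418, 14.7, 219.5, 16.3 and 1.19 CPM in shLacZ. In shDIS3L2 it was at 0, 0, 0.0483, 13.9, 239, 15.8 and 8.24 CPM. The lines lay close to each other on d6, d8 and d10 and apart on d12. Hba-a1 (ENSMUSG00000069919, chr11:32283511-32284465, plus strand), an alpha globin used by both embryonic and adult red cells, was at 0.0752, 0.455, 0.279, 2.56, 53.1, 7.75 and 1.09 CPM in shLacZ and at 0.0755, 0.280, 0, 3.49, 113, 19.8 and 10.8 CPM in shDIS3L2. Its transcript shares 67.5% of its distinct stretches of 50 bases with its neighbour and near copy Hba-a2. The level of Hba-a1 alone and the split of reads between Hba-a1 and Hba-a2 are therefore uncertain. Hbb-y, Hbb-bh1 and Hba-x shared 0% of theirs with the other globin transcripts compared.

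**Figure D1:**
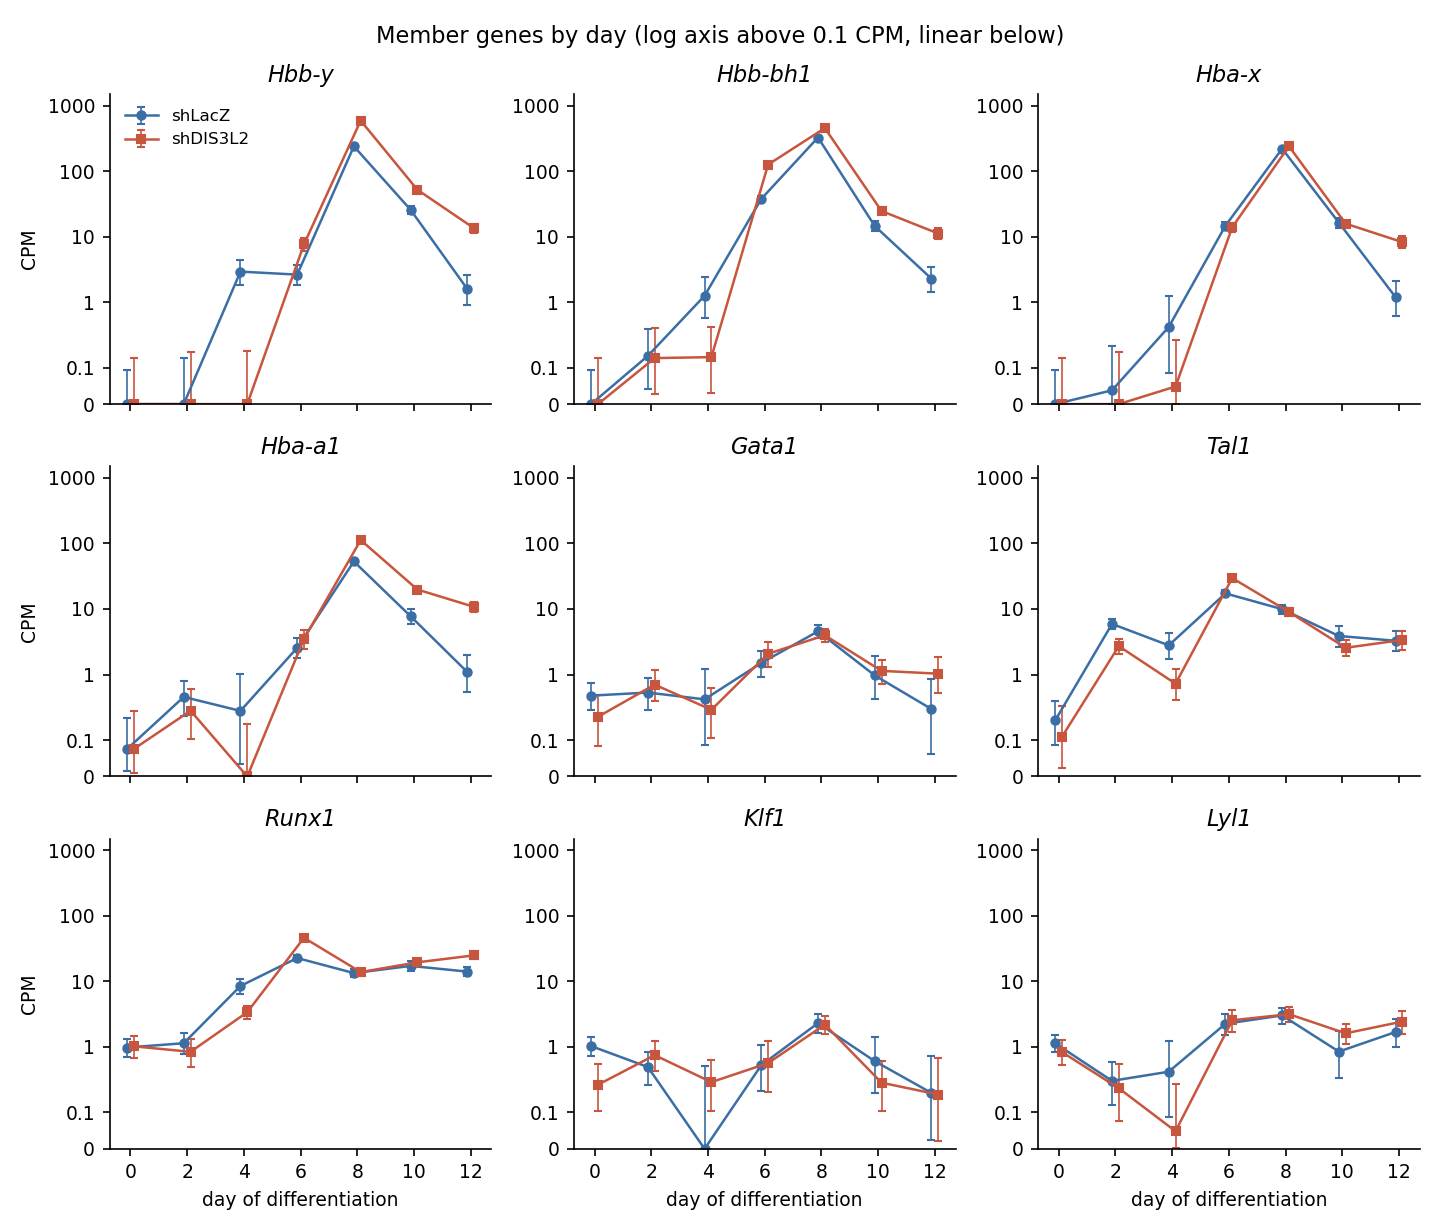
Level of each of the 9 genes (CPM, on an axis that is logarithmic above 0.1 and linear below) against day of differentiation, with shLacZ as blue circles and shDIS3L2 as red squares. Bars are 95% counting intervals of single libraries. The 4 globins, Gata1, Klf1 and Lyl1 are highest at d8 in both lines, and Tal1 and Runx1 at d6.

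At d8 each transcription factor was far below each globin, whereas in the stem cells and at d2 and d4 the 5 factors summed to more CPM than the 4 globins in both lines. Gata1 (ENSMUSG00000031162, chrX:7959260-7978071, minus strand), the zinc finger factor that red cell differentiation requires, was at 0.476, 0.531, 0.418, 1.50, 4.56, 0.968 and 0.298 CPM in shLacZ and at 0.227, 0.701, 0.290, 2.07, 3.97, 1.14 and 1.03 CPM in shDIS3L2. Klf1 (ENSMUSG00000054191, chr8:84901928-84905291, plus strand), which binds CACCC boxes of globin genes, was at 1.03, 0.493, 0, 0.526, 2.31, 0.605 and 0.198 CPM in shLacZ and at 0.264, 0.748, 0.290, 0.565, 2.19, 0.284 and 0.187 CPM in shDIS3L2. Both genes shared the d8 maximum of the globins. Their d8 levels rest on 77 and 78 reads for Gata1 and on 39 and 43 reads for Klf1 in shLacZ and shDIS3L2.

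Tal1 (ENSMUSG00000028717, chr4:115056426-115071755, plus strand), a basic helix-loop-helix factor needed for all blood lineages, was highest 1 sampling day before the globins. It was at 0.201, 5.91, 2.79, 17.3, 9.94, 3.87 and 3.27 CPM in shLacZ and at 0.113, 2.71, 0.725, 29.6, 9.01, 2.56 and 3.37 CPM in shDIS3L2. Lyl1 (ENSMUSG00000034041, chr8:84701457-84704715, plus strand), its close relative, was at 1.13, 0.303, 0.418, 2.25, 3.02, 0.847 and 1.69 CPM in shLacZ and at 0.831, 0.234, 0.0483, 2.54, 3.15, 1.61 and 2.43 CPM in shDIS3L2. Its d6 and d8 values did not differ beyond counting error, with a fold from d6 to d8 of 1.34 in shLacZ (0.836 to 2.18) and 1.24 in shDIS3L2 (0.777 to 2.03).

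Runx1 (ENSMUSG00000022952, chr16:92601466-92826149, minus strand), the factor that haemogenic endothelium needs to make definitive blood cells, was highest at d6 in both lines. It was at 0.978, 1.14, 8.50, 22.7, 13.4, 17.2 and 14.1 CPM in shLacZ and at 1.02, 0.841, 3.38, 46.2, 13.8, 19.5 and 24.9 CPM in shDIS3L2. From d8 to d12 its level was 1.05-fold in shLacZ (0.848 to 1.30) and 1.80-fold in shDIS3L2 (1.51 to 2.14). Over the same interval the 4 globins were between 48.1-fold and 182-fold lower in shLacZ and between 10.4-fold and 43.9-fold lower in shDIS3L2.

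Gene lengths differ, so levels were compared between genes as CPM per kilobase of exon (RPKM). At d6 Hbb-bh1 led in both lines, at 61.4 RPKM in shLacZ and 205 RPKM in shDIS3L2, followed by Hba-x at 15.6 and 14.9 RPKM and Hbb-y at 4.16 and 12.1 RPKM. The factor Tal1 came next, at 3.95 and 6.76 RPKM, ahead of Hba-a1 at 3.15 and 4.29 RPKM. In shLacZ the intervals of Hbb-y, Tal1 and Hba-a1 overlapped in turn, and in shDIS3L2 those of Hba-x and Hbb-y did. At d8 the order in shLacZ was Hbb-bh1 at 531, Hbb-y at 377, Hba-x at 234 and Hba-a1 at 65.4 RPKM, and in shDIS3L2 it was Hbb-y at 930, Hbb-bh1 at 740, Hba-x at 255 and Hba-a1 at 139 RPKM. None of these neighbours overlapped in their counting intervals. The factors lay between 1.13 and 2.27 RPKM at d8 in both lines, with overlapping intervals between neighbours. At d10 Hbb-y led in both lines, at 40.5 and 81.9 RPKM.

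In shLacZ the 4 globins summed to 57.5, 837, 64.3 and 6.15 CPM at d6, d8, d10 and d12, and in shDIS3L2 to 151, 1394, 112 and 43.5 CPM. At d8 this was 0.0837% of all reads on genes in shLacZ (0.0823 to 0.0851) and 0.139% in shDIS3L2 (0.138 to 0.141). The globin reads per read on the 5 factors were 1.30 and 1.86 at d6, 25.2 and 43.3 at d8, 2.74 and 4.46 at d10, and 0.315 and 1.36 at d12 in shLacZ and shDIS3L2. The sum of the factors lay between 19.5 and 44.3 CPM in shLacZ and between 25.1 and 81.0 CPM in shDIS3L2 from d6 to d12.

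The make-up of the globin reads differed between days as well as their total. Hbb-y made up 6.53% of the reads on Hbb-y and Hbb-bh1 in shLacZ at d6 (4.59 to 8.96) and 5.73% in shDIS3L2 (4.57 to 7.07). At d8 its share was 42.3% (41.3 to 43.3) and 56.5% (55.8 to 57.2), and at d10 63.9% (58.4 to 69.0) and 67.8% (65.5 to 70.1). At d12 the share rested on 39 reads in shLacZ, at 41.0% (25.6 to 57.9), and on 262 reads in shDIS3L2, at 54.6% (48.3 to 60.7). Per length the shares at d8 were 41.6% and 55.7%. Before d6 the reads were few, and in shLacZ at d4 the share was 70.0% (21 of 30 reads, 50.6 to 85.3), far above that at d6.

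On the alpha side, Hba-a1 and Hba-a2 together took 32.1% (26.7 to 37.8), 41.6% (40.3 to 42.8), 55.0% (49.2 to 60.7) and 71.4% (55.4 to 84.3) of the reads on the 3 alpha-like genes in shLacZ at d6, d8, d10 and d12, the rest being Hba-x. In shDIS3L2 the shares were 44.6% (38.5 to 50.8), 56.7% (55.7 to 57.6), 77.7% (75.5 to 79.8) and 79.2% (75.0 to 83.0). At d2, on 31 reads in shLacZ and 16 in shDIS3L2, it was higher still, at 96.8% (83.3 to 99.9) and 100% (79.4 to 100). Summing Hba-a1 with Hba-a2 removes the uncertainty of the split between these copies, but not any loss of reads that match both. From d6 the share was higher on each later day in both lines, although the d10 and d12 intervals overlapped, and the intervals of the lines did not overlap on d6, d8 and d10 but overlapped on d12.

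The adult beta genes Hbb-bs and Hbb-bt were at 0 reads up to d4 in both lines. Their share of the reads on the 4 beta-like genes was 1.29% (0.520 to 2.64), 4.64% (4.24 to 5.07), 8.54% (5.88 to 11.9) and 18.8% (8.95 to 32.6) in shLacZ at d6, d8, d10 and d12. In shDIS3L2 it was 1.46% (0.908 to 2.23), 5.09% (4.80 to 5.39), 24.3% (22.5 to 26.2) and 50.8% (46.4 to 55.1). The lines overlapped at d6 and d8 and not at d10 and d12, where the shDIS3L2 library held the larger adult share. Hbb-bs and Hbb-bt share 57.5% and 58.3% of their stretches of 50 bases with other globin transcripts, mainly each other, so their sum is used here. The sum does not make up for any loss of reads that match both. These differences in share are between single libraries, so the intervals hold no error between cultures.

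**Figure D2:**
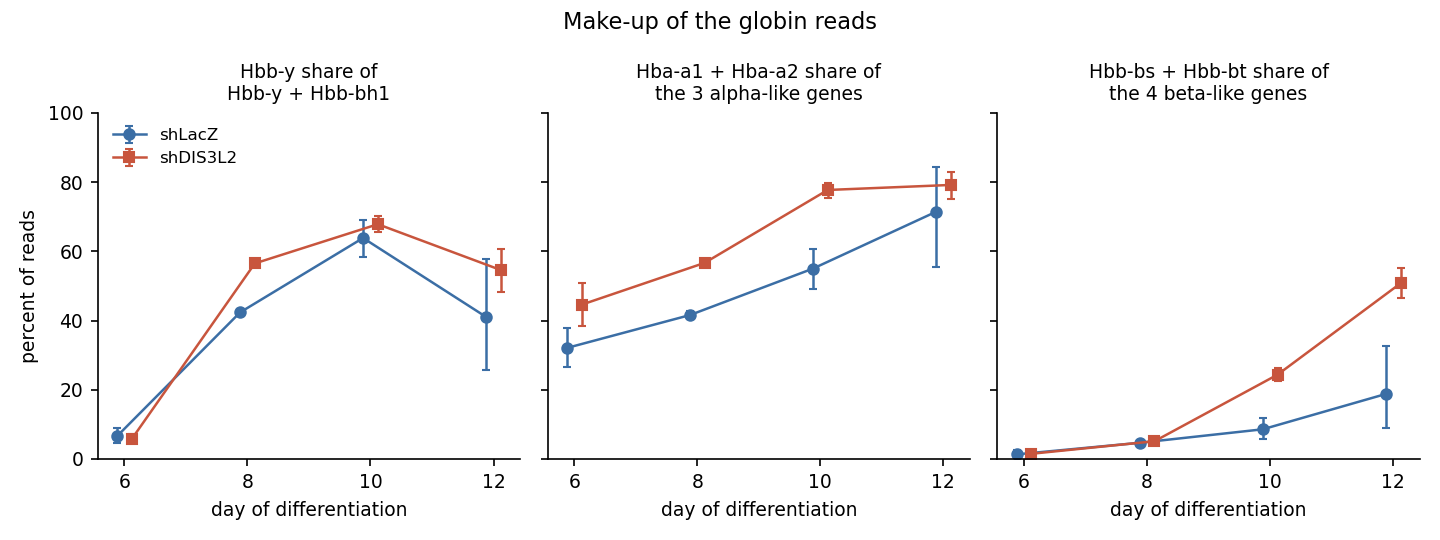
Shares of globin reads from d6 to d12, with shLacZ as blue circles and shDIS3L2 as red squares and 95% counting intervals as bars. Each panel has its own total. They are Hbb-y out of Hbb-y and Hbb-bh1, and Hba-a1 and Hba-a2 out of the 3 alpha-like genes. The last is Hbb-bs and Hbb-bt out of the 4 beta-like genes. The Hbb-y share is highest at d10, at 63.9% in shLacZ and 67.8% in shDIS3L2, and lower at d12, at 41.0% and 54.6%. The alpha share goes from 32.1% to 71.4% in shLacZ and from 44.6% to 79.2% in shDIS3L2, and the adult beta share reaches 18.8% and 50.8% at d12.

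To ask on which step the genes changed in both lines, an edgeR quasi-likelihood fit took day as a factor and line as a block, so that the 2 lines stood in for replicates of a day. These p-values measure the spread between the lines within days, and not that between cultures. All 9 genes passed the test for any difference between days, as did 84.7% of the 20050 genes tested, with adjusted p from 3.6e-06 for Hbb-bh1 to 0.0085 for Klf1. From d0 to d2 Tal1 rose by a log2 fold change of 4.10 (standard error 0.63, adjusted p = 0.00024), with 34.5% of all genes higher, and Lyl1 decreased by 2.43 (0.57, adjusted p = 0.0037), with 31% of all genes lower. From d2 to d4 Runx1 rose by 2.50 (0.51, adjusted p = 0.0092), as 9.25% of all genes did.

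The step from d4 to d6 was the one on which most of the set rose, 7 of the 9 genes against 7.54% of all genes. Hbb-bh1 rose by 7.45 on the log2 scale (0.83, edgeR adjusted p = 0.0018), Hba-x by 6.63 (0.93, adjusted p = 0.0035) and Hba-a1 by 5.50 (1.21, adjusted p = 0.017). Of the factors, Tal1 rose by 4.06 (0.56, adjusted p = 0.0028), Lyl1 by 3.90 (0.71, adjusted p = 0.0075), Runx1 by 2.60 (0.47, adjusted p = 0.0077) and Gata1 by 2.45 (0.60, adjusted p = 0.024). Hbb-y at 2.37 (1.36, adjusted p = 0.29) and Klf1 at 1.39 (0.91, adjusted p = 0.34) did not pass. Without the line as a block 6 were called, and Hba-a1 was lost (adjusted p = 0.054). For Hbb-y the lines differed on this step, since shLacZ went from 21 reads to 35 and shDIS3L2 from 0 reads to 81.

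From d6 to d8 Hbb-y rose by 6.37 (1.08, edgeR adjusted p = 0.049), Hba-a1 by 4.70 (0.70, adjusted p = 0.025) and Hba-x by 4.01 (0.57, adjusted p = 0.027), on a step where 0.554% of all genes were called higher. Hbb-y lay just inside the threshold and was not called with DESeq2 size factors (adjusted p = 0.051), with unscaled library totals (0.070) or by DESeq2 (0.097). None of the 3 was called in the same fit without the line as a block, and without the low-count filter 4 were, Hbb-bh1 included. Hbb-bh1 at 2.47 (0.54, adjusted p = 0.091) did not pass, and neither did any factor, with Klf1 at 2.06, Gata1 at 1.29, Lyl1 at 0.38, Runx1 at -1.29 and Tal1 at -1.35. The signs of Tal1 and Runx1 were thus opposite to those of the globins.

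From d8 to d10 edgeR called 0 of all genes, the 9 members included, although 820 genes (4.09%) and 8 members had an unadjusted p under 0.05. The log2 values were -4.40 for Hbb-bh1 (standard error 0.59, adjusted p = 0.13), -3.87 for Hba-x (0.57, adjusted p = 0.15), -3.39 for Hbb-y (0.91, adjusted p = 0.74) and -2.65 for Hba-a1 (0.62, adjusted p = 0.51). DESeq2 called 47 genes on this step, Hbb-bh1 among them (-4.37, standard error 1.07, adjusted p = 0.022). From d10 to d12 edgeR again called 0 genes, with 558 genes (2.78%) and 4 members, all globins, at an unadjusted p under 0.05, and DESeq2 called 3 genes and 0 members. Counted within each line with no replicate check, 7 of 9 members were at least 3-fold lower at d10 than at d8 in shLacZ, against 0.97% of protein-coding genes, namely the 4 globins, Gata1, Klf1 and Lyl1. In shDIS3L2 the count was also 7 of 9, against 0.758%, with Tal1 in place of Lyl1. From d10 to d12 it was 4 of 7 members in shLacZ, all globins, against 0.592%, and 1 of 8 in shDIS3L2, Hbb-y, against 0.345%.

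**Figure D3:**
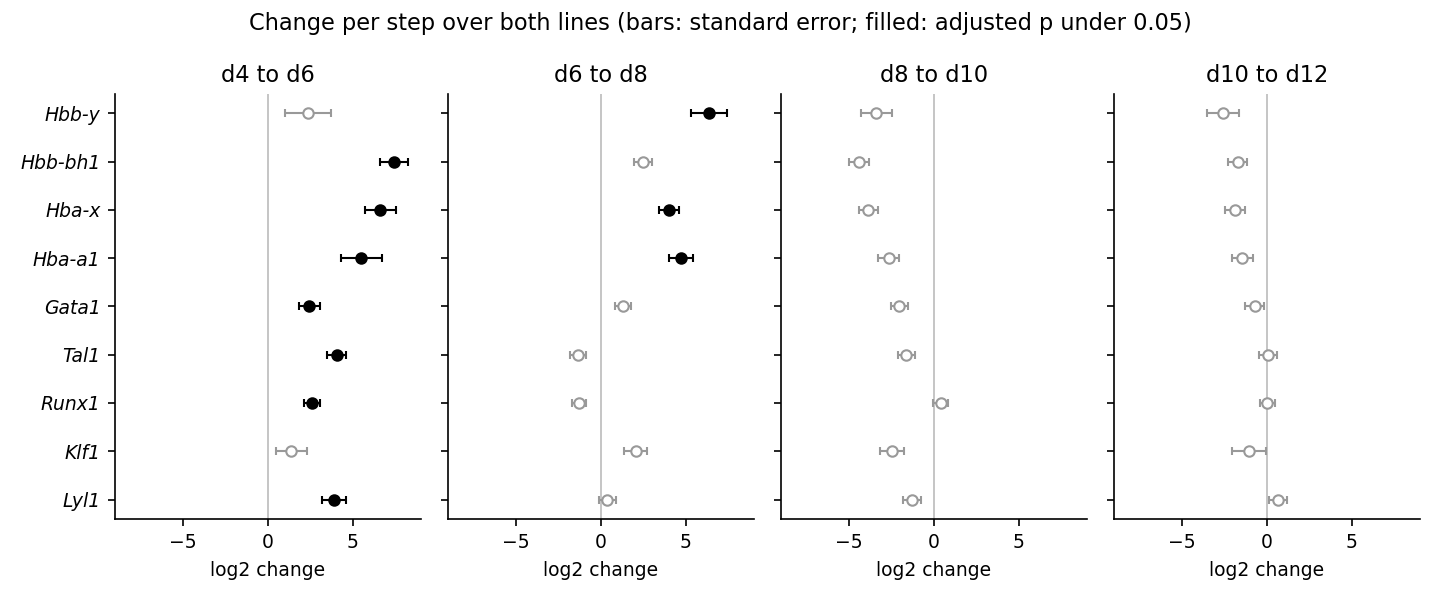
Change of the 9 genes on each step between neighbouring days from d4 to d12 (log2 fold change from the edgeR fit over both lines, with standard errors as bars). Filled points have an adjusted p under 0.05. The filled points lie at d4 to d6 for 7 genes and at d6 to d8 for Hbb-y, Hba-x and Hba-a1.

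The comparison of the lines asked whether the blood genes differed between the libraries labelled shDIS3L2 and shLacZ. Over d6 to d12, Hbb-y, Hbb-bh1 and Hba-a1 were higher in the libraries labelled shDIS3L2, and Hba-x and the factors did not pass the test. The fit took day as a block over the 8 libraries of these days, so its p-values measure how much the line difference varied between days of a single series. Hbb-y was higher by 1.47 on the log2 scale (standard error 0.24, edgeR adjusted p = 0.0043), Hba-a1 by 1.38 (0.32, adjusted p = 0.016) and Hbb-bh1 by 1.15 (0.26, adjusted p = 0.014), each higher on 4 of 4 days. At d6 the fold of Hba-a1 was 1.36 on 34 and 37 reads, with an interval of 0.833 to 2.24 that holds 1. Of all 16016 genes tested, 38.8% were called in either direction and 19.7% higher, so a call was common on these days. These calls were lost when day was not in the model, with edgeR adjusted p = 0.63 for Hbb-y, 0.77 for Hbb-bh1 and 0.56 for Hba-a1. That of Hba-a1 was also lost without d8 (adjusted p = 0.078) or d10 (adjusted p = 0.069). On d8 and d10 a lower Dis3l2 level was not detectable.

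Hba-x differed by 0.32 (0.32, adjusted p = 0.47), Runx1 by 0.52 (0.18, adjusted p = 0.058), Lyl1 by 0.35 (0.24, adjusted p = 0.28), Gata1 by 0.32 (0.32, adjusted p = 0.47) and Tal1 by 0.08 (0.23, adjusted p = 0.82), all by edgeR. Klf1 did not pass the filter on low counts and was not tested. A p that misses the threshold does not show that the lines were alike, and the factors rest on few reads.

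Over all 7 days edgeR called 0 of the 8 members tested, against 6.59% of 16739 genes, and DESeq2 also called 0. Hba-a1 (log2 difference 1.05, standard error 0.43, adjusted p = 0.15) and Hbb-bh1 (0.94, 0.39, adjusted p = 0.16) had an unadjusted p under 0.05, as did 28.6% of all genes. Hbb-y stood at 1.06 (0.66, adjusted p = 0.33), and without d4, where its order was the opposite, at 1.50 (adjusted p = 0.040).

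Day by day the folds of shDIS3L2 over shLacZ are between single libraries and have no replicate check. With a fold of at least 3 and a CPM of at least 1 in either library, Klf1 alone was lower at d0, at 41 and 7 reads in shLacZ and shDIS3L2, where 2.25% of protein-coding genes were. At d2 the count was 0 of 2 members compared, against 0.114% of genes higher and 0.129% lower. At d4 Hbb-y (21 and 0 reads, at least 20.2-fold lower against a floor of 3 reads, leaving aside the counting error of the 21), Hbb-bh1 (0.125-fold, 0.0201 to 0.463) and Tal1 (0.264-fold, 0.124 to 0.535) were lower, against 1.68% of genes, and Runx1 was at 0.399-fold (0.278 to 0.571). The shLacZ d4 library was the shallowest, and the globin values there rest on 21 reads or fewer.

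At d6 Hbb-bh1 was 3.34-fold higher in shDIS3L2 (3.01 to 3.70), with 2.7% of genes past this fold. Hbb-y was then 2.89-fold higher (1.93 to 4.45), Runx1 2.03-fold (1.76 to 2.36) and Tal1 1.71-fold (1.44 to 2.04), whereas Hba-x was at 0.952-fold (0.763 to 1.18). At d8 and d10 no member passed 3-fold, a fold at which 5.47% and 8.68% of genes were higher. The largest values there were those of Hbb-y at d8 (2.47-fold, 2.38 to 2.56) and Hba-a1 at d10 (2.55-fold, 1.96 to 3.38), and Hba-x was again near 1 (1.09-fold, 1.04 to 1.14, and 0.965-fold, 0.788 to 1.19).

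At d12, 5 of the 8 members compared were at least 3-fold higher in shDIS3L2, against 8.07% of protein-coding genes. Hba-a1 was 9.76-fold higher (5.32 to 20.3), Hbb-y 8.37-fold (5.02 to 15.2), Hba-x 6.86-fold (3.77 to 13.9) and Hbb-bh1 4.86-fold (3.11 to 8.00). Gata1 was at 3.35-fold on 3 and 11 reads, with an interval of 0.915 to 19.3 that holds 1. Levels were low on this day, with 62 reads on the 4 globins in shLacZ and 465 in shDIS3L2. Runx1 was 1.77-fold higher (1.44 to 2.18), Lyl1 was at 1.44-fold (0.754 to 2.84) and Tal1 at 1.03-fold (0.624 to 1.70).

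**Figure D4:**
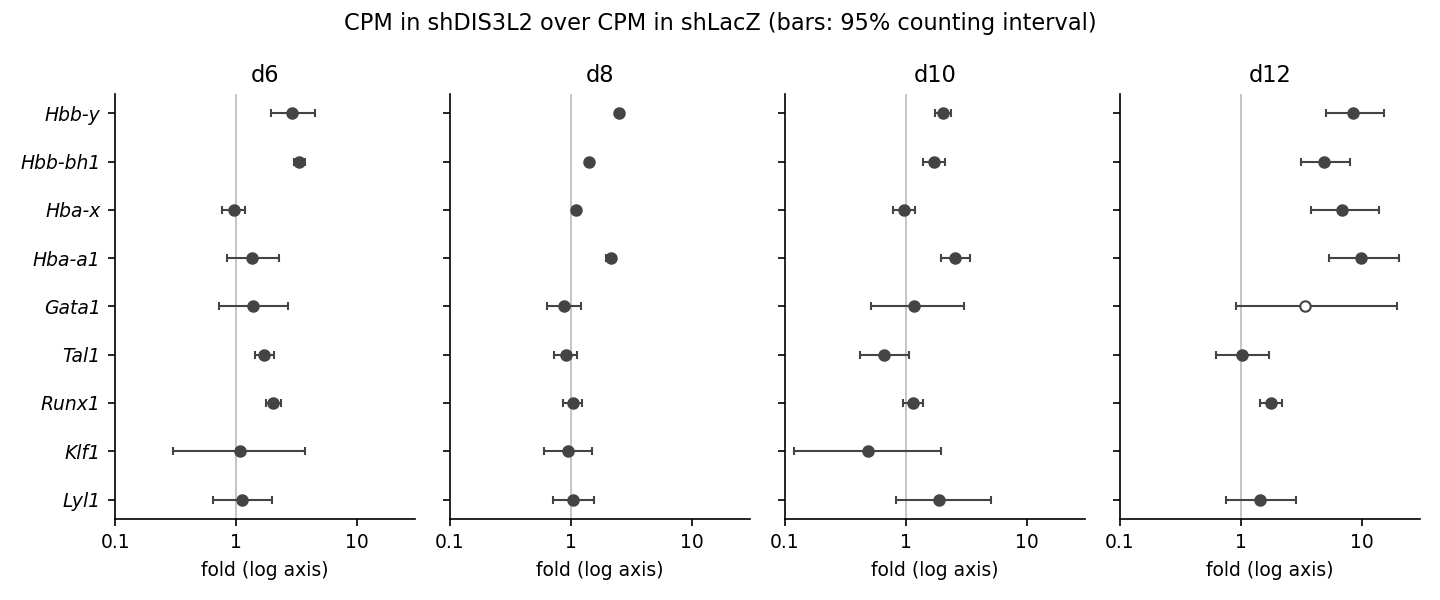
Fold of CPM in shDIS3L2 over CPM in shLacZ for each gene at d6, d8, d10 and d12 (log axis, with 95% counting intervals as bars), where the open point rests on 3 reads in one library and Klf1 at d12 is left out because both libraries were at 3 reads or fewer. The 4 globins lie between 4.86-fold and 9.76-fold at d12, and Hba-x lies near 1 on the 3 days before.

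Genes of the same pathway were read from lists in the same fits. Over all 7 days 0 genes of the blood, red cell and endothelial lists were called higher and 2 lower, Cpox and Sox7. In that fit 6.59% of all genes were called. The calls of these lists given here are those of d6 to d12, where calls were far more common, at 38.8% of all genes. Apart from those of Cpox and Sox7, they were not found over all 7 days. The other globins that could be tested, Hbb-bs (log2 difference 2.29, standard error 0.52, edgeR adjusted p = 0.014), Hbb-bt (2.24, 0.53, adjusted p = 0.017) and Hba-a2 (1.48, 0.34, adjusted p = 0.014), were all higher in shDIS3L2 over d6 to d12. At d12 Hbb-bs was at 0.496 and 13.6 CPM in shLacZ and shDIS3L2, Hbb-bt at 0.397 and 11.7 CPM and Hba-a2 at 1.88 and 20.6 CPM. Because Hbb-bs and Hbb-bt, and Hba-a2 and Hba-a1, share sequence, these are not independent calls and the split within each pair is uncertain. Hbb-bh2, Hbq1a and Hbq1b were at 10 reads or fewer in each library.

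Of 8 haem synthesis genes, Alas2, which encodes the red cell form of the first enzyme of the pathway, was higher in shDIS3L2 (0.84, standard error 0.27, edgeR adjusted p = 0.045), and Cpox (-0.66) and Fech (-0.55), which all cells use, were lower. Of 6 tested genes of the red cell membrane and surface, Kel (1.30, adjusted p = 0.0057) and Add2 (1.21, adjusted p = 0.013) were higher and none was lower. Of 5 tested genes for iron, chaperone and receptor, Epor, the erythropoietin receptor (1.11, adjusted p = 0.019), and the mitochondrial iron carrier Slc25a37 (0.32, adjusted p = 0.016) were higher. The median log2 difference of these lists was 2.24 for the other globins, 0.04, 0.46 and 0.03, against 0.01 over all genes tested. In this fit 38.8% of all 16016 genes tested were called in either direction and 19.7% higher.

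Among 11 other blood transcription regulators tested, Sox6 (2.12, edgeR adjusted p = 0.00088), Bcl11a (1.33, adjusted p = 0.048) and Ldb1 (0.34, adjusted p = 0.014) were higher and Myb (-1.31, adjusted p = 0.022) and Zfpm1 (-0.45, adjusted p = 0.041) were lower. Sox6 and Bcl11a are known repressors of the embryonic beta-like genes in definitive red cells. Of 10 haemangioblast and haemogenic endothelium genes, Kdr (1.62), Cd34 (1.21), Fli1 (0.83) and Mecom (0.73) were higher and Etv2 (-1.89), Sox7 (-1.34), Hhex (-0.85) and Kit (-0.37) were lower. Among 10 endothelial genes Emcn (1.39) and Cldn5 (0.77) were higher and Egfl7 (-0.51) was lower. Of 4 tested megakaryocyte genes Itgb3 (1.10) was higher, and of 6 tested leukocyte genes Tyrobp (3.32). The medians were 0.10 for the regulators, 0.15 for the haemangioblast, 0.24 for the endothelial, 0.39 for the megakaryocyte and 0.50 for the leukocyte genes. These counts stand beside 38.8% of all genes called in either direction and 19.7% called higher. Epor, Bcl11a, Myb, Fli1, Mecom, Etv2, Hhex, Cldn5, Tyrobp and the low globin genes were named after their values had been seen.

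**Figure D5:**
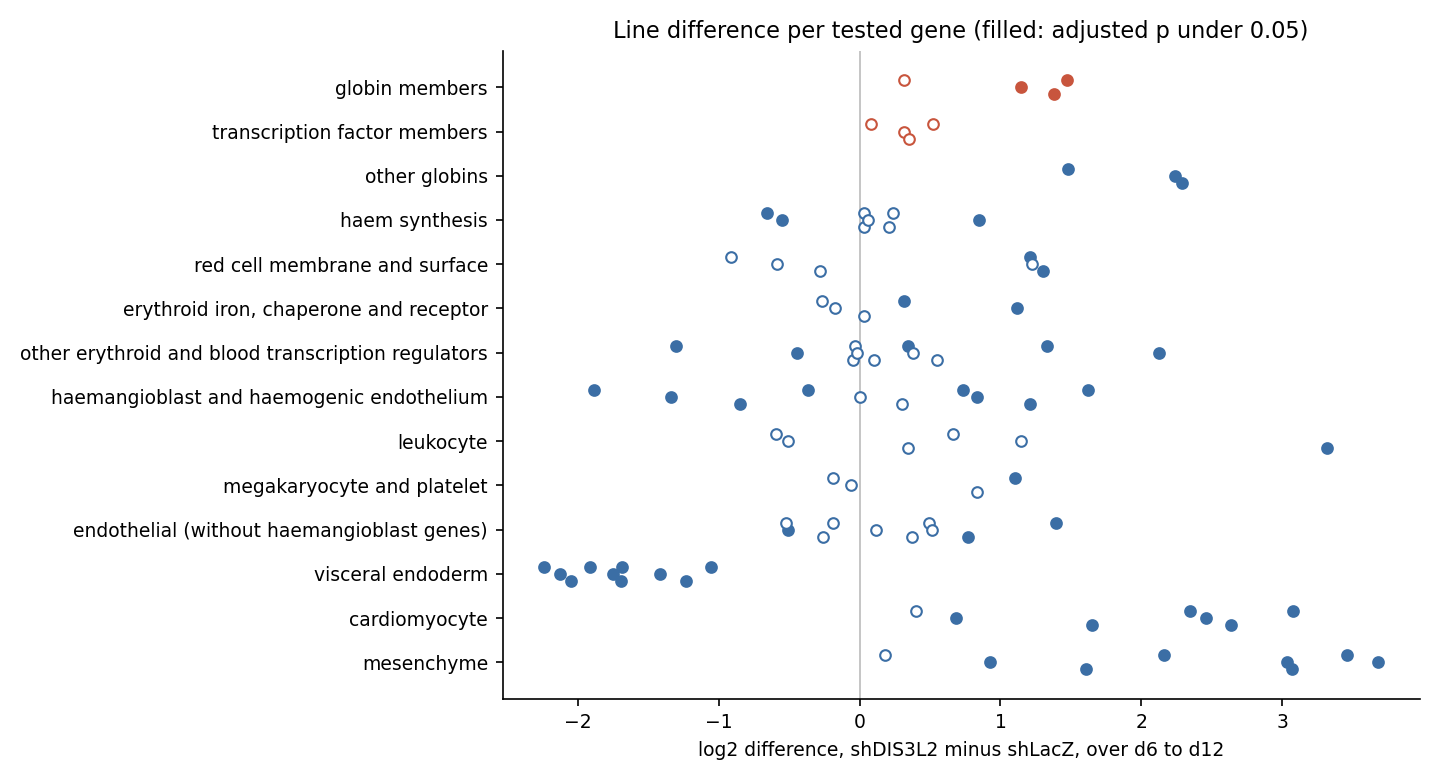
Log2 difference of shDIS3L2 minus shLacZ over d6 to d12 for every tested gene (edgeR, 1 point a gene), with the 2 groups of members in red above the lists in blue. Filled points have an adjusted p under 0.05. The visceral endoderm genes all lie below 0 and the mesenchyme genes all above, and 3 of 4 globin members are filled.

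Over the days, a maximum at d8 in both lines was shared by 7 of 12 genes of the red cell membrane and surface, 4 of 8 haem synthesis genes and 3 of 6 other globins, against 2.81% of 15350 protein-coding genes. It was shared by 2 of 7 iron, chaperone and receptor genes, 3 of 14 other regulators and 1 of 10 haemangioblast genes. Lists of other cell types also held such genes, with 2 of 10 megakaryocyte, 2 of 10 endothelial, 2 of 8 mesenchyme, 1 of 10 visceral endoderm and 0 of 8 cardiomyocyte genes. From d6 to d8 edgeR called Hba-a2 (log2 4.65, standard error 0.77, adjusted p = 0.035), Alas2 (3.07, 0.52, adjusted p = 0.037) and the anion exchanger Slc4a1 (6.11, 0.90, adjusted p = 0.025) higher. In all, 2 of 12 red cell membrane and surface genes were called higher on this step. Of other cell types, 2 of 10 endothelial, 1 of 9 tested megakaryocyte and 1 of 10 visceral endoderm genes were. Among all genes the share was 0.554%. Alas2 was at 20.2 and 29.5 CPM at d8, and Slc4a1 at 10.9 and 19.9 CPM. None of the 12 leukocyte genes shared that maximum. Their sum was highest in the stem cells at d0, at 228 and 310 CPM in shLacZ and shDIS3L2, mostly Laptm5 at 190 and 271 CPM. It was 33.3 and 19.9 CPM at d8 and 56.9 and 213 CPM at d12. At d12 Csf1r, a macrophage receptor gene, was at 11.5 and 44.7 CPM. Runx1, which blood cells of several lineages express, was also above its d8 level at d12 in shDIS3L2, and the part of leukocytes in its level was not tested.

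Likeness of pattern was measured as Pearson's r of log2(CPM + 1) over the 14 libraries among 15350 protein-coding genes. The points share libraries and a common course over the days, so r is a description. Closest to the mean globin profile were Hba-a2 (r = 0.985), Alas2 (0.969), Emcn (0.949), Lyve1 (0.932), Cd93 (0.931), Hsd3b1 (0.925), Adgrl4 (0.924), Tmem204 (0.924), Mmrn1 (0.923) and Itgb3 (0.921). Closest to the mean factor profile were Grap2 (0.962), Kel (0.942), Erg (0.940), Tie1 (0.939), Pcdh12 (0.928), Samsn1 (0.918), Adgrl4 (0.918), Alas2 (0.917), Myct1 (0.917) and Slc18a2 (0.914). Emcn, Cd93, Erg and Tie1 are known from endothelium, and Alas2 and Kel from red cells. Hsd3b1 and Myct1 rest on low levels, of at most 1.68 and 2.80 CPM in any library.

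Gene by gene, the closest to Hbb-y and to Hba-a1 was Hba-a2 (r = 0.981 and 0.997). To Hbb-bh1 it was Hba-x (0.971), and to Hba-x and Gata1 it was Alas2 (0.973 and 0.970). Because Hba-a1 and Hba-a2 share sequence, their r is not between independent values, and neither is that of Hba-a2 with the mean globin profile. Lyl1 was closest to S1pr1 (0.943), Tal1 to Nrip3 (0.928) and Runx1 to Csf1 (0.970). Among the factors, Gata1 was nearest to the globins, with r between 0.862 and 0.946 over the 4 globins, against 0.474 to 0.757 for Tal1, 0.607 to 0.764 for Runx1, 0.606 to 0.676 for Klf1 and 0.717 to 0.845 for Lyl1.

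Markers of other cell types differed between the lines on the same days as the globins. Over d6 to d12, 10 of 10 visceral endoderm genes were lower in shDIS3L2, with summed levels of 2841 to 6442 CPM in shLacZ and 562 to 1764 CPM in shDIS3L2. In the same fit 7 of 8 mesenchyme genes were higher, with sums of 397 to 1871 and 1234 to 16159 CPM, and 6 of 7 tested cardiomyocyte genes were higher, with sums of 19.4 to 46.3 and 26.9 to 198 CPM. Of all genes tested in that fit, 38.8% were called in either direction and 19.7% higher. Over all 7 days the list counts were 8 of 10, 1 of 8 and 1 of 7, against 6.59% of all genes called. The pluripotency genes Pou5f1, Nanog, Sox2, Zfp42, Klf4 and Esrrb summed to 2547 and 1624 CPM at d0 and to 326 to 490 CPM in shLacZ and 50.6 to 333 CPM in shDIS3L2 from d6 on. No visceral endoderm, mesenchyme or cardiomyocyte gene was at 0 on these days. The part of the differing cell make-up of the EBs in the globin differences was not tested.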

How the data were processed

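Per the labels and methods, polyA RNA of the 14 libraries was sequenced on a NextSeq instrument, and the authors aligned reads to mouse GRCm38 with Subread and counted reads per gene with featureCounts. The deposited count table holds raw counts of 50686 genes. The deposited CPM table holds 16181 protein-coding genes, and its values equal the counts plus 0.25 over the total of those genes. No column of per-sample values was left unused. Library totals ranged from 7178712 to 39888099 reads. The members and gene lists were chosen with earlier results of these data known.

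CPM was recomputed from the counts over all genes. Line differences (day as a block) and day differences (line as a block) were tested with edgeR 4.0.16 (quasi-likelihood, TMM scaling, low-count filter by group) in R 4.3.3, and p-values were adjusted by Benjamini-Hochberg over all genes tested, with a threshold of 0.05. Labels give 1 library per line and day, so days stood in for replicates of a line and lines for replicates of a day. Folds between single libraries used a prior count of 0.25. On simulated counts with 200 changed genes, the d6 to d12 line test called 200 of them and 7 others of 16605 genes, and the test of d6 against d8 called 194 and 10 others of 18994. The simulation had the same dispersion for every gene and no course over the days beyond the planted changes. Its changed genes were not low in reads. It checks that the fits run correctly and gives no error rates for these libraries. Named genes were the members, Dis3l2, the called genes of each list (the 4 of highest mean CPM where there were more) and the 10 genes most like each mean profile, with 1 gene most like each member, and some of them are not reported here. Alternatives were other scalings, no filter, DESeq2 1.42.0, no block, and leaving out each day. Figures were drawn with matplotlib 3.10.9, and intervals came from scipy 1.17.1.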

Additional observations from a re-analysis of the deposited data

How the results depend on the processing

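Members called between the lines over the 7 days numbered 0, and 1 without a low-count filter (Hbb-bh1, log2 0.96, edgeR adjusted p = 0.049), with a range of 0 to 1 when a day was left out (Hbb-y without d4). Over d6 to d12 the count of 3 became 0 with no day block, where Hbb-y stood at 1.29, Hbb-bh1 at 0.68 and Hba-a1 at 1.16, was 4 without the filter (Runx1, adjusted p = 0.015) and ranged from 2 to 3 when a day was left out. Day is the only pairing of the lines. In the 7-day comparison the sign turned for Tal1 with no day block (0.11). When a day was left out, the 7-day value ranged from -0.13 to 0.44 for Hba-x, -0.024 to 0.28 for Gata1, -0.067 to 0.34 for Runx1 and -0.090 to 0.16 for Lyl1, which was at -0.033 without d12. Over d6 to d12 that of Tal1 ranged from -0.23 to 0.22. From d2 to d4 the members called higher numbered 2 by DESeq2 and those called lower 1 without the filter. From d6 to d8 those called higher numbered 0 without the line block and 2 to 4 under the other alternatives, and from d8 to d10 those called lower 4 without the filter and 1 by DESeq2. Of the 3-fold counts, d0 lower was 0 with DESeq2 scaling, and without a minimum CPM d2 lower was 1, d4 higher 1 and d4 lower 6. At 2-fold, d2 lower was 1, d6 higher 3, d8 higher 2, d10 higher 2 and the total over the days 18. The d8 folds of Hbb-y, Hbb-bh1 and Hba-x were 2.32, 1.31 and 1.03 with TMM scaling. The causes were not tested. Another 149 values of comparisons and 362 of single genes kept their direction and their side of the threshold, or lay within 1.5 times. Depth limits the members with few reads, namely the globins up to d4 in both lines and at d12 in shLacZ, and Klf1, Gata1 and Lyl1.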
